A study of Mus musculus with 10 samples.

Results

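Resting regulatory T cells (Treg) and resting conventional T cells (Tconv) were compared for the regions of the genome bound by p65, also called RelA, a subunit of the transcription factor NF-kB. The members were the peak regions of the unstimulated Treg list and of the unstimulated Tconv list, after overlapping entries within each list had been joined. A region was called shared where it overlapped a region of the other list by 1 bp or more, and otherwise Treg-only or Tconv-only. The Treg list held 3208 regions, of which 661 were Treg-only and 2547 shared. The Tconv list held 2961 regions, of which 413 were Tconv-only and 2548 shared. Joined together, both resting lists gave 3617 of the 11923 regions found in the 4 lists of the series.

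All cells were taken from C57BL/6 mice, out of spleens and lymph nodes, and no label gives an age or a genetic alteration. The resting groups were unstimulated Treg and unstimulated Tconv, with 2 libraries each, precipitated with an antibody against mouse p65. The stimulated groups, also of 2 libraries each, had spent 3 h on plate-bound antibody against CD3 with antibody against CD28 in solution, with IL-2 at 10 ng/ml for Treg and 2 ng/ml for Tconv, and 2 further libraries held input chromatin. The sources used here do not say whether the unstimulated cells were cultured, or with which IL-2, so stimulation, culture and IL-2 cannot be told apart between resting and stimulated lists.

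In most resting cells NF-kB dimers are held in the cytoplasm by inhibitor proteins of the IκB family. Signals from the T cell receptor and from CD28 lead, through a complex that holds BCL10 and MALT1, to destruction of the inhibitor, and dimers containing p65 or c-Rel then enter the nucleus and bind kB sites. Treg, which restrain immune responses and express the transcription factor FOXP3, receive tonic antigen receptor signals and need NF-kB for their development and function.

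Each list was made by the authors from the pooled libraries of a group, so there is no value per library and no spread between replicates. Fold enrichment below is the authors' ratio of the signal at a region's strongest summit over its local background. It ranks regions within a list, and folds from different lists stand side by side without a test. Library depth is unknown, and more reads or less background lengthen a list. The lowest deposited −log10 p was 15.1 in the resting Treg list and 13.3 in the resting Tconv list. Intervals are 95% Wilson intervals over regions. They cover counting error alone, since regions are neither replicates nor independent. The labels were checked against marker genes, taking for each region the nearest protein-coding gene within 50 kb. Of the Treg markers, Il2ra (the IL-2 receptor alpha chain) and Ikzf2 (Helios) each had 1 resting Treg region and no resting Tconv region, and Tnfrsf18 (GITR) had 2 and none. Foxp3 and Ctla4 had no region in either resting list. Of the markers of conventional and naive T cells, Tcf7 had 2 Treg-only regions and a shared one. The shared Tcf7 region had 7.38-fold in Treg and 10.1-fold in Tconv. Ccr7 had Treg-only and Tconv-only regions, and Il7r had a Treg-only region. Lef1 had a shared and a Tconv-only region, and Cd40lg had none. A p65 region is not an expression value, so these markers neither bear out nor contradict the labels. Among 27 markers of other cell types, 4 had a resting region in the Treg list and 2 in the Tconv list. A region in either resting list was near 14.8% of these markers, against 15.1% of all protein-coding genes. The count therefore does not set them apart from other genes. Their 1 Treg-only region lay at Cd74 (6.64-fold), the invariant chain of MHC class II.

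Promoter sequences are shown first, as examples of the words counted further below. Each sequence is RefSeq's window of GRCm38.p6, whose coordinates are those of mm10, from 250 bases before to 50 after a gene start, written 5′ to 3′ on the gene's strand. Capitals mark matches, on either strand, to the 10-base kB motif or to the word CGCANGCG, the core of the motif of nuclear respiratory factor 1 (NRF1), an activator of genes for mitochondrial and other basic cell functions. The shared region of highest fold lay between the divergent genes Sugp2 and Armc6, and the Armc6 window (chr8:70234373-70234672, minus strand) held 5 core matches and no kB match. The Rab3gap2 window (chr1:185203918-185204217, plus strand), from the third strongest shared region, held 2 core matches. The core was picked after a look at the strongest shared windows, so its presence in them follows from that choice. Windows not printed include Phf12, from the second strongest shared region, with 1 core and 1 kB match, and Nadk, with 2 core matches. Of Treg-only windows not printed, Sdhaf1, of the highest fold, held neither word, Ssr1 held 1 core match and Bbc3 2 kB matches. A Treg-only region covered the window of H2-Q4, a gene for a nonclassical MHC class I molecule (chr17:35379367-35379666, plus strand), with 2 overlapping kB matches. The Tconv-only region of highest fold, at the start of Kpna1, a nuclear import adaptor, covered the window of its divergent neighbour Gm15564 (chr16:35983280-35983579, minus strand), with 2 core matches. Nfkbia, which encodes IκBα, is shown for contrast, as an NF-kB feedback gene with a shared region (chr12:55492598-55492897, minus strand).
Armc6 (shared): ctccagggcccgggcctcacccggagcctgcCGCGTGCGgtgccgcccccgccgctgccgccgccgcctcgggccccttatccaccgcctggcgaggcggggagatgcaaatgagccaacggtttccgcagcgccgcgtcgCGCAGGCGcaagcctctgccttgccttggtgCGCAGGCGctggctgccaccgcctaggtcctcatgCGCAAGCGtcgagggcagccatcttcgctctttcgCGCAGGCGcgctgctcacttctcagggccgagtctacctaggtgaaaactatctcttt
Rab3gap2 (shared): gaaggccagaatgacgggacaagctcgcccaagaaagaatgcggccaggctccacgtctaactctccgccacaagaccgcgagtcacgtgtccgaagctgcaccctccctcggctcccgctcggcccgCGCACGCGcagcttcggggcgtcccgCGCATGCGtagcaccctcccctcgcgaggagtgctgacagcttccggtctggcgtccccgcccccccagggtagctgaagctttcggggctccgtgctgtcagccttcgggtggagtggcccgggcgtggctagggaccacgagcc
H2-Q4 (Treg-only): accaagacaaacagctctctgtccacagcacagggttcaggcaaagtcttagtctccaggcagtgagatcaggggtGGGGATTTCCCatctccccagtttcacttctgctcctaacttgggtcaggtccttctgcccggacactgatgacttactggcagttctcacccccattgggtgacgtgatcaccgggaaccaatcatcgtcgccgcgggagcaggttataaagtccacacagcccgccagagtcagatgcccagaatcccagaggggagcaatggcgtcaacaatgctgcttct
Gm15564 beside Kpna1 (Tconv-only): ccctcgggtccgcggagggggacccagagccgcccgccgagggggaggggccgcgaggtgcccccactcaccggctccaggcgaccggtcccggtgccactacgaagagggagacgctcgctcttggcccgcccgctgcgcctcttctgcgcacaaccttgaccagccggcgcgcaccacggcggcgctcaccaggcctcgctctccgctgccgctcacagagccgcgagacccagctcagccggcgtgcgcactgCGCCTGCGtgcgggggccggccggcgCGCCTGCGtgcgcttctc
Nfkbia (shared): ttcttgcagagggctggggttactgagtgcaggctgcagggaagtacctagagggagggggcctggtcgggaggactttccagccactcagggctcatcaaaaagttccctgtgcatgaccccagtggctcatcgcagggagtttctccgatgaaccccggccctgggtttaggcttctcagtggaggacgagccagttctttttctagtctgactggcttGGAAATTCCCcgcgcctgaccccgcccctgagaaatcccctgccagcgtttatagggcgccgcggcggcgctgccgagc

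Short stretches around a kB match are shown for some of the other unshared regions at gene starts that held the motif. They were picked by gene function from 31 Treg-only and 5 Tconv-only windows with a match. Of those, 4 Treg-only and 1 Tconv-only had no counterpart in either stimulated list, and none of these is shown. The stretches come from 4 Treg-only regions at genes of immune or cell-division function. A further 2 come from Tconv-only regions at genes of NF-kB signalling. Capitals mark 1 match in each stretch. The windows of Il16 and Tnip1 held 2 and 3 matches, and the further ones are not marked. Kif23 encodes a kinesin of cell division (within chr9:61946750-61947049), Il16 a cytokine that attracts CD4+ cells (within chr7:83655446-83655745), Tnip1 a partner of the NF-kB inhibitor A20 (within chr11:54962891-54963190) and Bcl3 an atypical IκB protein (within chr7:19822706-19823005), all on the minus strand. Map3k7 encodes the kinase TAK1 (within chr4:31963857-31964156, plus strand) and Bcl10 an adaptor that works with MALT1 (within chr3:145924012-145924311, plus strand).
Kif23 (Treg-only): cggaagggccGGGATTTCCCctctcaggtt
Il16 (Treg-only): catgactgctGGGAATTTCCcgctaaaggt
Tnip1 (Treg-only): ctccatcatgGGGGAATTCCcctcctgcct
Bcl3 (Treg-only): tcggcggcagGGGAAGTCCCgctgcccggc
Map3k7 (Tconv-only): ccccgggtcaGGAAATTCCCcgctcgggtc
Bcl10 (Tconv-only): gcgaaggcgGGGAGATCCCgctaaactga

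The first comparison asked which resting regions were seen in one cell type alone. Resting p65 binding in Treg and Tconv coincided at nearly every strong region, and the unshared regions were weak ones. Treg-only regions made up 20.6% of the Treg list (19.2 to 22.04%), and Tconv-only regions 13.9% of the Tconv list (12.8 to 15.2%). Their order depended on where the lists end. With both lists cut to equal length by −log10 p the shares were 16.9% and 16.8%, which are near each other by construction. At a common −log10 p of 15.1 they were 25.2% and 9.50%. Treg-only regions had a median fold of 5.97 (range 2.44 to 12.1), against 9.96 for shared regions of the same list (2.16 to 92.4). Tconv-only regions had a median of 5.69 (1.89 to 41.1), against 9.42 (2.48 to 95.6). By decile of the Treg list by fold, the share without a Tconv counterpart was 57.9% in the weakest decile, 19.3% in the fifth and 1.24% in the seventh. It was 0 of 321 in each of the top 2 deciles, for which the interval reaches 1.18%. In the Tconv list the share fell from 45.5% in the weakest decile to 4.39% in the fifth, and 1 of 295 regions in the strongest decile was unshared, the one at Kpna1. Width differed less, with medians of 826 bp for Treg-only and 883 bp for shared Treg regions, and 695 bp and 876 bp in the Tconv list.

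**Figure D1:**
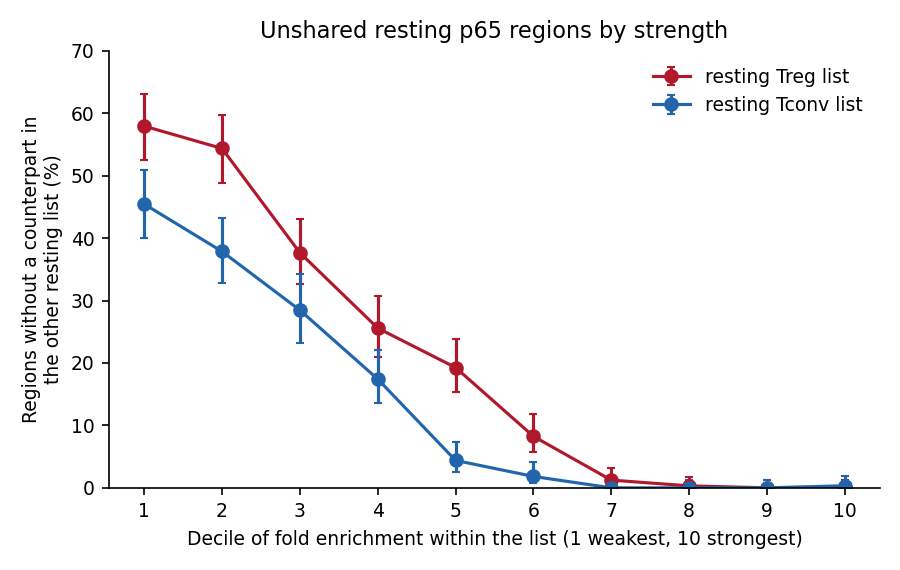
Share of resting regions without a counterpart in the other resting list (y axis, percent) by decile of fold enrichment within each list (x axis), with red points for Treg, blue points for Tconv and bars for 95% Wilson intervals over regions. The share falls from 57.9% to 0% in Treg and from 45.5% to 0.339% in Tconv.

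Shared regions matched closely in place and in rank. Of 2534 shared regions with a single partner each, 96.3% had summits within 100 bp of each other, at a median distance of 14 bp. Across the 2547 shared Treg regions, Spearman's rho between the folds of both lists was 0.884, a description over regions that share their libraries. The 1 bp rule left few borderline cases. The smallest overlap of a shared region was 202 bp, at Csf2ra (3.03-fold in Treg and 3.25-fold in Tconv), and the next were 203 bp, at Cilk1 and Itga9. On the other side, 7 of the 661 Treg-only regions and 7 of the 413 Tconv-only regions lay within 1 kb of a region of the other list. The nearest such pair lay inside Nfkbiz, which encodes the atypical inhibitor IκBζ, where a Treg-only region (6.08-fold) and a Tconv-only region (5.03-fold) were 177 bp apart. Msl1, a subunit of a histone acetyltransferase complex, also had one of each, 749 bp apart (6.14-fold in Treg, 5.69-fold in Tconv). Most unshared regions were thus not edges of a shared one, though 31.8% of Treg-only and 28.1% of Tconv-only regions lay within 50 kb of a region of the other list.

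The strongest shared regions were not at NF-kB genes. After Sugp2, a G-patch domain protein (92.4-fold in Treg and 95.6-fold in Tconv), they lay at Phf12, a chromatin-binding repressor subunit (84.1 and 88.3), Rab3gap2, a regulator of the Rab3 and Rab18 GTPases (77.0 and 75.3), and Nadk, which makes NADP (72.2 and 69.6). Next came the vesicle GTPase Rab35 (70.7 and 71.8), Zbtb41 (69.0 and 67.0), the histone methyltransferase Ehmt1 (68.7 and 73.7) and the translesion DNA polymerase Polh (65.6 and 62.2). All 8 had a counterpart in both stimulated lists, with folds of 27.3 to 39.0 in stimulated Treg and 37.5 to 58.2 in stimulated Tconv. The NF-kB feedback genes had lower folds than these at rest, and each had a higher fold in the stimulated lists than at rest. At Nfkbia the shared region had 42.3-fold in resting Treg and 33.2-fold in resting Tconv, with 102-fold and 82.3-fold in the stimulated lists. The Tnfaip3 start, which serves the deubiquitinase A20, had 43.3 and 35.1 at rest and 86.1 and 70.2 after stimulation. Rel, which encodes c-Rel, had 33.0 and 24.7 at rest and 44.7 in both stimulated lists, and Nfkb1, which encodes p105 and p50, had 18.2 and 14.8 at rest and 64.2 and 52.0 after stimulation. At each of these 4 genes the resting fold was higher in the Treg list, a side-by-side reading with no test. The whole list of NF-kB genes had the other order, with a median fold over its shared regions of 15.3 in the Treg list and 16.1 in the Tconv list.

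The next comparison placed the regions relative to genes. A larger share of shared than of unshared regions lay at gene ends, and regions of every class near a start were centred close to it. Here a gene end means within 1 kb of either end of a protein-coding gene. Of Treg-only regions 374 (56.6%, 52.8 to 60.3%) lay there, against 74.0% (72.3 to 75.7%) of shared Treg regions. Of Tconv-only regions 257 (62.2%, 57.5 to 66.8%) did, against 73.9% of shared Tconv regions. A further 24.7% of Treg-only and 21.5% of Tconv-only regions lay inside a gene away from its ends, against 17.1% of shared Treg regions, and 14.98% and 11.4% lay outside within 50 kb, against 7.19%. Strength moved with position, so the classes were also set side by side within quartiles of fold. In the weakest quartile of the Treg list 58.5% of Treg-only (53.8 to 63.0%) and 65.8% of shared regions (61.0 to 70.3%) lay at gene ends, and in the second quartile 54.6% (47.6 to 61.5%) and 72.3% (68.6 to 75.8%). In the weakest quartile of the Tconv list the shares were 60.9% (55.2 to 66.2%) and 62.3% (57.7 to 66.7%), and their intervals overlapped. Both stimulated lists had lower shares, at 33.0% in Treg and 39.1% in Tconv.

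**Figure D2:**
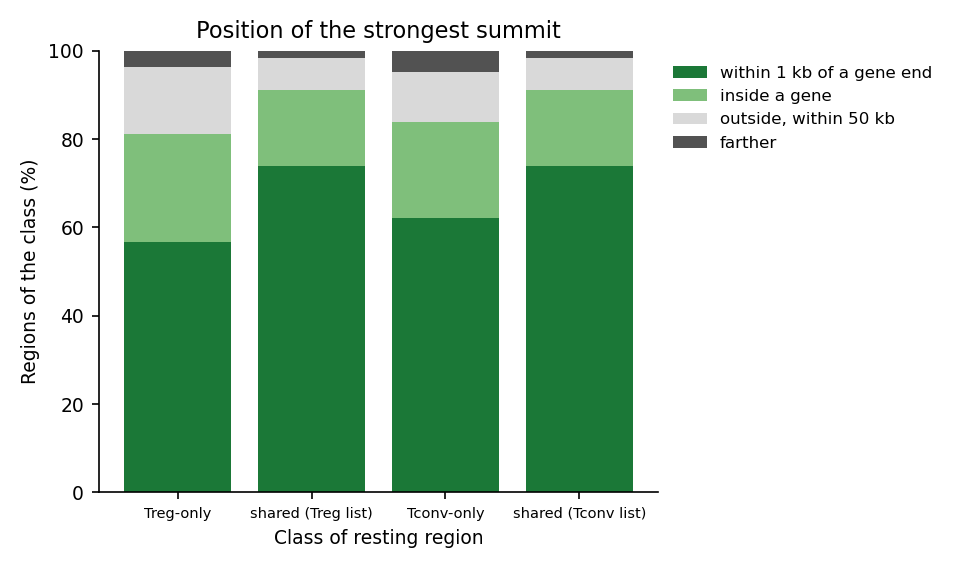
Position of the strongest summit relative to the nearest protein-coding gene, as stacked percentages (y axis) of the 4 classes of resting regions (x axis). The dark green part, within 1 kb of a gene end, is 56.6% in Treg-only and 62.2% in Tconv-only regions, and 74.0% and 73.9% in shared regions.

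Regions near a start in RefSeq's promoter table were centred just upstream of it. Such a start lay within 1 kb of the summit of 54.2% of Treg-only, 69.6% of shared and 56.4% of Tconv-only regions. The median summit was 38 bp before the start in Treg-only, 40 bp before it in shared Treg and 21 bp before it in Tconv-only regions. Summits lay before the start in 65.4% of Treg-only (60.3 to 70.1%), 71.9% of shared Treg (69.8 to 73.9%) and 58.8% of Tconv-only regions (52.4 to 64.9%). The table covers 79.9% of protein-coding genes and 81.6% of the nearest genes of gene-end regions, so a start that it leaves out was not counted.

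Motifs were counted in promoter windows lying wholly inside a region, 281 windows for Treg-only, 1506 for shared Treg, 144 for Tconv-only and 1487 for shared Tconv regions. Over all strengths a larger share of shared than of unshared promoters held the NRF1 core, and of the 4 classes Treg-only promoters had the largest share with the kB motif. The core CGCANGCG was in 54.6% of shared Treg windows (52.1 to 57.1%), 24.9% of Treg-only windows (20.2 to 30.3%) and 27.1% of Tconv-only windows (20.5 to 34.9%), against 8.24% of all 32544 windows in the table. The full 10-base NRF1 motif was in 8.30% of shared Treg, 2.14% of Treg-only and 3.47% of Tconv-only windows, against 0.974% of all windows. The core was picked after a first look at words in the strongest shared windows. The same letters in reverse order, GCGNACGC, which have the same base composition, were therefore counted beside it and were in 26.0% of shared Treg, 16.0% of Treg-only and 13.2% of Tconv-only windows, against 4.66% of all. GC content was 65.6 to 66.5% in the 4 classes and 53.9% in all windows. The core moved with fold. In quartiles of the Treg list from weakest to strongest it was in 28.0, 31.6, 51.8 and 74.3% of windows, and in the Tconv list in 26.6, 37.2, 52.7 and 78.3%. The reversed word also had its highest share in the strongest quartile, at 17.7, 17.4, 23.1 and 34.1% in the Treg list and 11.5, 24.3, 23.5 and 34.6% in the Tconv list. Treg regions with the core had a median fold of 13.3, and those without it 7.56. Within the weakest quartile of the Treg list the classes had intervals that overlapped, at 26.2% of Treg-only (20.4 to 32.9%) and 29.7% of shared windows (23.6 to 36.7%). In the second quartile they were 20.5% (13.2 to 30.4%) and 34.6% (29.5 to 40.1%), whose intervals also overlap. In the weakest quartile of the Tconv list 20.2% of Tconv-only (13.6 to 28.9%) and 30.0% of shared windows (24.1 to 36.7%) held the core. The second quartile had the reverse order, with 44.7% of 38 Tconv-only windows (30.1 to 60.3%) and 36.4% of shared windows (31.4 to 41.6%), and in both quartiles the intervals overlapped.

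The kB motif was in 31 of 281 Treg-only windows (11.03%, 7.88 to 15.2%), in 6.71% of shared Treg (5.55 to 8.08%), 6.52% of shared Tconv and 5 of 144 Tconv-only windows (3.47%, 1.49 to 7.87%), against 4.53% of all windows. With 1 mismatch allowed the shares were 58.7%, 51.7%, 50.6% and 58.3%, against 45.6% of all windows, so the difference between Treg-only and Tconv-only windows was not seen with the looser motif. Within the weakest and second quartiles of fold the classes had overlapping kB intervals. In the Treg list they were 9.63% of Treg-only (6.18 to 14.7%) and 4.87% of shared windows (2.58 to 8.99%), then 10.8% (5.81 to 19.3%) and 8.09% (5.54 to 11.7%). In the Tconv list they were 4.81% of Tconv-only and 8% of shared windows, then 0% of 38 and 8.50%. Unlike the core, the kB motif had no higher share in the strongest quartile at rest. From weakest to strongest it was in 7.26, 8.67, 9.18 and 5.35% of the Treg windows and in 6.91, 7.65, 6.62 and 4.63% of the Tconv windows. In the stimulated Treg list the order was 4.67, 5.22, 8.45 and 10.5%, and the core there was in 23.9, 28.6, 32.0 and 25.7%. In the stimulated Tconv list the kB motif was in 7.11, 6.53, 8.83 and 10.7%. The core was in 31.1, 32.5, 39.6 and 40.1% there, so it was still highest in the strongest quartile of that list. The 31 Treg-only regions with the motif include those at H2-Q4, H2-Q6 and H2-Q7, near-identical copies whose values are uncertain. Of the 31, 27 had a counterpart in stimulated Treg and 24 in stimulated Tconv. Those at Il16 (8.37-fold at rest, 20 and 20.3 in stimulated Treg and Tconv), Tnip1 (6.29, then 12.6 and 8.74) and Bcl3 (5.64, then 18.6 and 12.7) are among the sequences above. Of the 5 Tconv-only regions with the motif, 3 had a counterpart in stimulated Treg and 4 in stimulated Tconv. Map3k7 (5.34-fold, then 18.9 and 15.8), Bcl10 (5.72, then 17.2 and 12.7) and Abcf2 (5.64, then 14.8 and 14.3) had both. The other words had overlapping intervals in Treg-only and Tconv-only windows. The ETS word CCGGAAG was in 23.5% of Treg-only, 20.6% of shared Treg and 17.4% of Tconv-only windows, against 8.91% of all, and the GC box GGGCGG in 79.0, 79.2 and 79.9%, against 35.9%. In the same order of classes CCAAT was in 39.9, 32.7 and 31.9%, against 37.4% of all. The RUNX word TGTGGT was in 12.5, 9.43 and 8.33%, against 16.7%. The remaining words were the CRE TGACGTCA, the 10-base YY1 motif and the AP-1 word TGANTCA. A match is a run of letters in a window of 300 bases, and no test was made of binding at it.

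**Figure D3:**
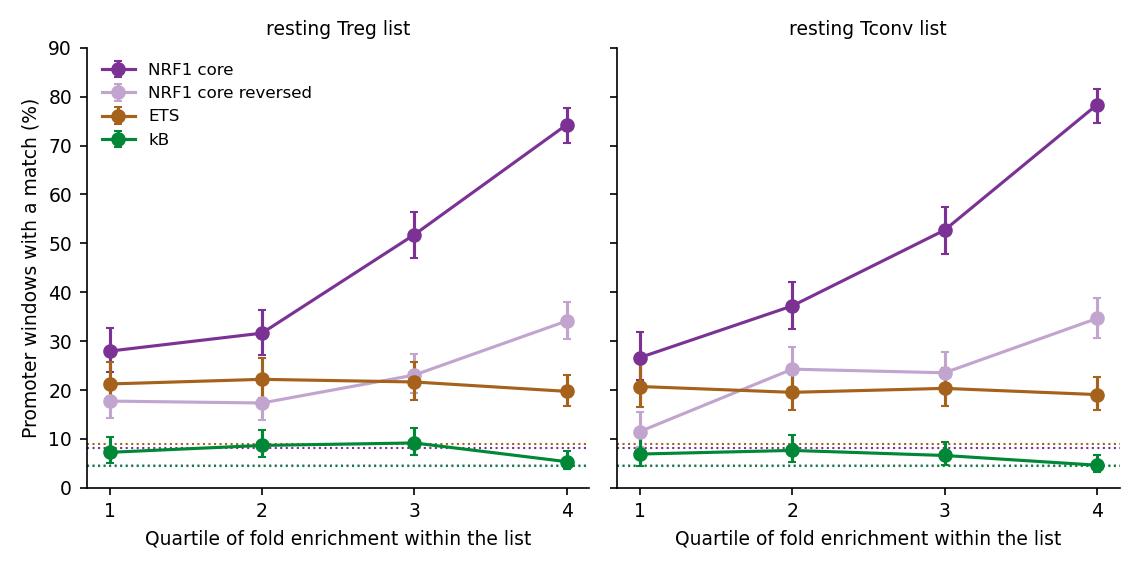
Share of promoter windows inside resting regions with a motif match (y axis, percent) by quartile of fold within the Treg list (left) and the Tconv list (right), with 95% Wilson intervals, and dotted lines for the share of all promoter windows with the same motif. The NRF1 core goes from 28.0% to 74.3% in Treg and from 26.6% to 78.3% in Tconv, while kB stays between 4.63% and 9.18%.

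Resting regions were then looked for in the stimulated lists, which had no part in forming the classes. Treg-only and shared regions had nearly the same share in stimulated Treg, and Tconv-only regions had the smallest share in both stimulated lists. Of Treg-only regions 78.2% (74.9 to 81.2%) had a counterpart in stimulated Treg and 58.9% (55.1 to 62.5%) in stimulated Tconv. For shared Treg regions the shares were 78.4% and 67.7%, and for Tconv-only regions 55.4% (50.6 to 60.2%) and 38.7% (34.2 to 43.5%). At matched strength the classes moved apart in opposite directions. In the weakest quartile of the Treg list 74.3% of Treg-only (70.01 to 78.2%) and 64.1% of shared regions (59.2 to 68.6%) were in stimulated Treg, and in the second quartile 84.5% (78.8 to 88.9%) and 71.3% (67.5 to 74.8%). In the weakest quartile of the Tconv list 58.2% of Tconv-only (52.5 to 63.6%) and 71.8% of shared regions (67.4 to 75.8%) were in stimulated Treg, and in the second quartile 50% (40.7 to 59.3%) and 72.1% (68.6 to 75.4%). In the stimulated Tconv list the second quartile gave 26.9% of Tconv-only (19.4 to 35.9%) and 55.0% of shared regions (51.1 to 58.8%).

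**Figure D4:**
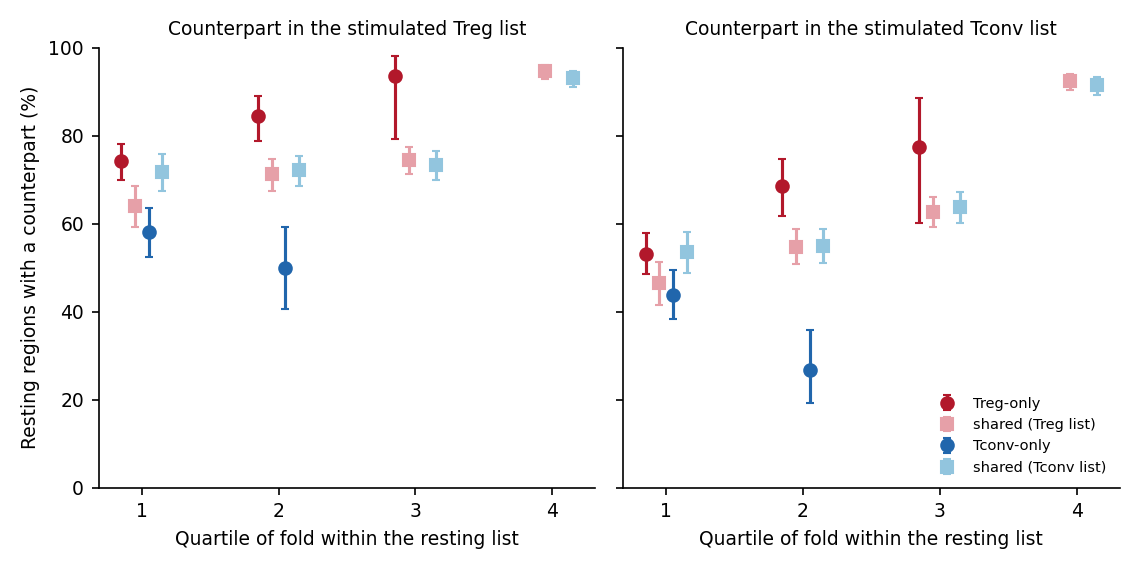
Share of resting regions with a counterpart (y axis, percent) in the stimulated Treg list (left) and the stimulated Tconv list (right), by quartile of fold within the resting list (x axis), with 95% Wilson intervals and only points of 20 or more regions. In the second quartile, 84.5% of Treg-only regions and 50% of Tconv-only regions had a counterpart in stimulated Treg, with shared regions at 71.3% and 72.1%.

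Length of the stimulated lists entered these shares, because the stimulated Treg list has 11077 regions and the stimulated Tconv list 5734. With both cut to 5734 regions by −log10 p, 51.6% of Treg-only regions were in stimulated Treg and 58.9% in stimulated Tconv, so the order turned, and for Tconv-only regions the shares were 29.3% and 38.7%. The place of the classes moved too. In stimulated Treg, Treg-only regions (47.8 to 55.4%) then had the highest share, with shared Treg regions at 46.8% (44.9 to 48.7%), while at full length these were 78.2% and 78.4%. Tconv-only regions had the lowest share at either length. Position moved with the share too. Treg-only regions away from gene ends were in stimulated Treg in 83.6% of cases and in stimulated Tconv in 71.4%, against 74.1% and 49.2% of those at gene ends. Tconv-only regions away from gene ends were found in 52.6% and 47.4%, against 57.2% and 33.5% at gene ends.

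Most Treg-only regions were therefore not Treg-only across the series. Of the 661, 384 were in both stimulated lists, 133 in stimulated Treg alone, 5 in stimulated Tconv alone and 139 in neither. Of the 413 Tconv-only regions, 149 were in both, 80 in stimulated Treg alone, 11 in stimulated Tconv alone and 173 in neither. Regions held by both lists of one cell type and neither list of the other thus numbered 133 for Treg and 11 for Tconv. With stimulated lists of equal length these counts were 26 and 52, so their order rests on list length. The 133 were weak in both states, with a median fold of 5.81 at rest and 9.30 in stimulated Treg (6.35 to 23.9), and 97 of them (72.9%) lay at gene ends. They included Ikzf2, Klrg1, Il4ra, Fosb and H2-Q6 of the gene lists below. Hopx, a homeodomain protein, had the highest stimulated fold among them (6.47 at rest and 23.9 in stimulated Treg), a gene named after its values were seen. Of the 11, the region inside Bach1, a repressor of haem and oxidative stress genes, had the highest stimulated fold (5.35 at rest and 19.0 in stimulated Tconv), also named after its values were seen.

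Genes were then read by function. A Treg-only region was nearest to 611 of 21887 protein-coding genes (2.79%) and a Tconv-only region to 391 (1.79%), while 3305 (15.1%) had a region in either resting list. Of the 611 genes, 65 (10.6%) also had a shared region, as had 42 of the 391 (10.7%). In all 15 lists of genes were read, 10 of them of T cell function with 252 genes, and all were chosen with earlier results of these data known. Genes with a region in either resting list made up 13.6% (effector cytokines) to 71.9% (NF-kB) of these 10 lists, against 15.1% of all genes. Counts of genes with an unshared region below stand beside that difference. Of their Treg regions 0% (effector cytokines) to 71.4% (co-stimulation) were unshared, against 20.3% for all genes. Near genes of the 10 T cell lists lay 51 Treg-only and 24 Tconv-only regions. At rest these were as weak as the others, with medians of 6.14 and 5.54. Of the 51 Treg-only regions, 49 (96.1%) were in stimulated Treg and 43 (84.3%) in stimulated Tconv, against 76.7% and 56.7% of the other 610. Their median fold in stimulated Treg was 25.3, against 13.5 for the others. Of the 24 Tconv-only regions, 21 (87.5%) were in stimulated Treg and 19 (79.2%) in stimulated Tconv, against 53.5% and 36.2% of the other 389. Shared Treg regions near these genes had a similar share in stimulated Treg, 96.2% of 78. Position differed as well, with 23.5% of the 51 regions at gene ends, against 59.3% of the other 610.

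**Figure D5:**
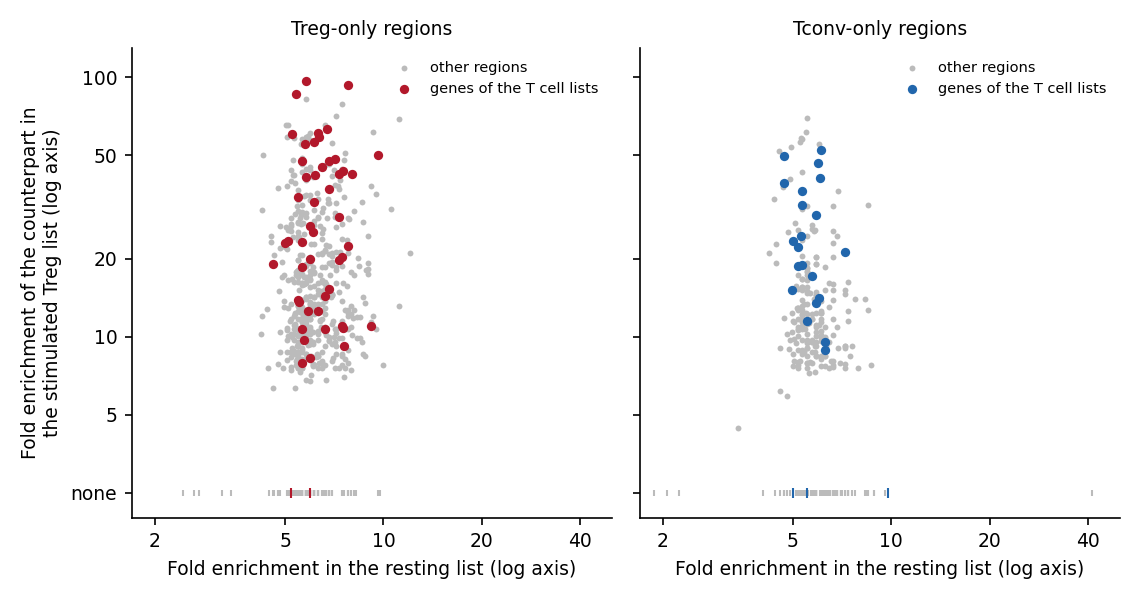
Fold enrichment of each unshared resting region in its own list (x axis, log scale) and of its counterpart in the stimulated Treg list (y axis, log scale), for Treg-only (left) and Tconv-only regions (right). Coloured points are regions near genes of the 10 T cell lists and grey points all others, and tick marks at "none" have no counterpart; the coloured Treg-only regions reach 96.5-fold after stimulation from resting folds of 4.58 to 9.59.

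Genes of the NF-kB family and its feedback mostly had shared regions. Of 32 genes, 20 had a shared region, 6 a Treg-only region and 3 a Tconv-only region. The unshared counts are 18.8% and 9.38% of the list, against 2.79% and 1.79% of all genes. The 7 Treg-only regions lay at Nfkbia, 24.5 kb beyond the gene (6.80-fold at rest, 47.6 in stimulated Treg and 32.1 in stimulated Tconv), 2 sites at Bcl3 (7.30 and 5.64), and at Tnip1, Nfkbiz, Nfkbie (IκBε, 5.48) and Traf3, an adaptor of TNF receptors (5.52). The Tconv-only regions lay at Bcl10, Map3k7 and Nfkbiz. All 10 of these regions were in both stimulated lists.

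The Treg identity list had 9 genes with a region in the resting Treg list and 5 with one in the resting Tconv list, and 4 had both. Of 37 genes, 6 (16.2%) had a Treg-only region and 1 (2.70%) a Tconv-only region, against 2.79% and 1.79% of all genes. Over the 10 T cell lists the Treg-only share went from 0% (effector cytokines) to 33.3% (early activation), so it was not particular to this list. Of the list's 11 Treg regions 7 were Treg-only (63.6%, against 20.3% for all genes). Inside Il2ra the region at chr2:11653341-11653726 had 6.72-fold at rest and was in both stimulated lists, at 62.9 in Treg and 34.8 in Tconv. The 2 regions beside Tnfrsf18 had 6.14 and 4.58, with 56.1 and 19.0 in stimulated Treg and 22.1 and 7.73 in stimulated Tconv. A further 4 regions were found in stimulated Treg but not in stimulated Tconv. One lay 132 bp outside an end of Ikzf2 (5.72 at rest and 9.72 after stimulation). The others lay inside Tnfrsf9, the co-stimulatory receptor 4-1BB (5.88 and 12.5), near the inhibitory lectin receptor Klrg1 (7.50 and 10.8) and at Cd83 (5.64 and 10.7). In the other direction, Izumo1r, which encodes the folate receptor FR4 that Treg carry in quantity, had a Tconv-only region (5.96-fold) with 46.7 in stimulated Treg and 32.2 in stimulated Tconv.

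The list for naive and conventional T cells had more genes with a Tconv-only region, 10 of 25, than with a Treg-only region, 5. These are 40% and 20% of the list, against 1.79% and 2.79% of all genes. Tconv-only regions lay inside Lef1, a transcription factor of naive cells (5.31-fold), at 2 places inside Bach2, a repressor of effector genes (4.98 and 4.68), inside Foxp1, which keeps naive cells quiescent (6.09), inside Ets1 (5.20), at Sox4 (4.99) and Pde3b (5.54), and near S1pr1, the exit receptor of lymphoid organs (5.35), Cxcr4 (5.35) and Il6st, the signalling chain gp130 (4.69). Sox4 and Pde3b had no stimulated counterpart. The Foxp1 region was in stimulated Treg (52.2) and not in stimulated Tconv. The second Bach2 region had 49.5 and 34.0 in stimulated Treg and Tconv. Treg-only regions lay at Tcf7, which encodes TCF-1 (6.80 and 6.64), Il7r (5.97), Il6ra (6.18) and Ets2 (7.47). Tcf7 also had a shared region, with a higher fold in Tconv (10.1) than in Treg (7.38). Ccr7, the receptor that brings T cells into lymph nodes, had 2 Treg-only regions (7.56 and 5.81) and 1 Tconv-only region (5.91), each in both stimulated lists. At the common −log10 p of 15.1 the number of genes with a Tconv-only region in this list was 5, so the lead over Treg-only regions depended on the weak end of the Tconv list. Within 10 kb of a gene it was 6, against 5 with a Treg-only region.

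Receptor and signalling genes with an unshared region were mostly on the Treg side. All genes leaned the same way, with 2.79% having a Treg-only and 1.79% a Tconv-only region. These shares were 20 and 4% for T cell receptor signalling, 16 and 0% for co-stimulation and 21.2 and 6.06% for cytokine receptors. With resting lists of equal length the unshared shares of regions were near each other, and genes of the lists were not counted at that length. Among 25 genes of T cell receptor signalling, 5 had a Treg-only region and 1 a Tconv-only region. The 5 were Cd247, the receptor's zeta chain (7.80-fold), the phosphatase Ptpn22 (7.51), the kinase Prkcq, which leads from the receptor to NF-kB (7.12), and the co-receptors Cd6 (6.14) and Cd5 (5.24). All 5 were in both stimulated lists, with Cd5 at 60.6 in Treg and 25.4 in Tconv and Prkcq at 48.5 and 35.1. Vav1, an exchange factor, had the Tconv-only region (5.91). Among 25 co-stimulation genes and TNF receptors, 4 had a Treg-only region and none a Tconv-only region. Besides Tnfrsf18 and Tnfrsf9 these were Cd28 (8.001-fold at rest, 42.5 and 24.0 after stimulation) and the adhesion receptor Cd2 (5.81, then 96.5 and 50.5). Among 33 cytokine receptor, JAK and STAT genes, 7 had a Treg-only and 2 a Tconv-only region. Cish, the STAT5-induced inhibitor of cytokine signalling, had a pair of Treg-only regions (7.80 and 5.77) with 93.3 and 55.3 in stimulated Treg and 40.7 and 24.4 in stimulated Tconv. Others lay near Il10ra (5.64, then 47.6 and 26.3), at Il4ra (5.96, then 8.23 in stimulated Treg) and at 2 places in Jak1 (5.64 and 5.001). Tgfbr2 had a Tconv-only region (5.54, then 11.5 and 9.21).

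Among 22 genes of chemokine receptors and homing, 5 had a Tconv-only and 2 a Treg-only region. These are 22.7% and 9.09% of the list, against 1.79% and 2.79% of all genes. The Tconv-only region of the integrin Itgal had 6.28, with 8.89 in stimulated Treg. The 2 Treg-only regions of Cxcr5, the follicular homing receptor, had 6.47 and 5.40 at rest, 44.9 and 86.4 in stimulated Treg and 30.0 and 63.8 in stimulated Tconv. At the common −log10 p the Tconv-only count for this list was 3 genes. Within 10 kb of a gene it was 1, against 2 with a Treg-only region, so the order rested on regions farther from the genes.

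Early activation genes are transcribed within the first hours after receptor signalling. Of 30, 10 (33.3%) had a Treg-only region and 4 (13.3%) a Tconv-only region, against 2.79% and 1.79% of all genes. A region in either resting list was near 70% of them, against 15.1% of all genes. The Treg-only regions lay near the stress factor Atf3 (9.59-fold), inside Nfatc2 (7.47), at Gadd45b (7.30) and Bhlhe40 (7.30), inside the orphan receptor Nr4a1 (6.80), and near Fosb (6.64), Egr1 (6.36), Ier5 (5.98), the phosphatase Dusp1 (5.64) and Ier2 (5.09). All 10 were in stimulated Treg, at 10.7 to 58.7, and all but the Fosb region were in stimulated Tconv. Tconv-only regions lay inside Nfatc1 (6.28) and at Fosl2 (6.02), Dusp2 (5.17) and near the activation marker Cd69 (6.06, then 40.9 and 34.0), and each was in both stimulated lists. The survival list of 22 genes had Treg-only regions at Bbc3, which encodes the death protein PUMA and had 3 of them (9.13, 5.98 and 5.22), and at the kinase Pim1 (6.31 and 5.48, then 60.9 and 34.7 in stimulated Treg). The first Bbc3 region had 11.03 and 13.2 after stimulation, while the remaining 2 had no counterpart. Bcl2, which blocks apoptosis, had a Tconv-only region 145 bp inside its start (7.20, then 21.2 and 20.7). In the survival list 9.09% of genes had a Treg-only and 4.55% a Tconv-only region, against 2.79% and 1.79% of all genes. The 22 effector cytokine genes had no unshared region, and 3 had a shared one.

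MHC and antigen processing genes had a Treg-only region in 4 of 20 cases, H2-Q4 (11.1-fold), the peptide-loading factor Tapbp (8.14), H2-Q6 (7.04) and H2-Q7 (4.23), and a Tconv-only region at Psmb9, an immunoproteasome subunit (5.35). Genes with a Treg-only and a Tconv-only region made up 20% and 5% of this list, against 2.79% and 1.79% of all genes. The H2-Q genes are near-identical copies, so reads may be split between them and their values are uncertain. Lists of basic cell functions held 3 genes with a Treg-only and 5 with a Tconv-only region. Among 42 ribosomal protein genes 2 had a Treg-only and 1 a Tconv-only region, beside 10 with a shared one. These are 4.76% and 2.38% of the list, against 2.79% and 1.79% of all genes. Among 33 mitochondrial genes 1 (3.03%), Sdhaf1, had a Treg-only region, 2 (6.06%) a Tconv-only and 8 a shared one. At the common −log10 p these unshared counts were 2 and 0. Among 27 genes of splicing and nuclear export none had a Treg-only region, 2 (7.41%), Kpna1 and Nxf1, a Tconv-only and 13 a shared one. Apart from the missing Treg-only region in the last list, the shares of genes were thus above those of all genes, on counts of 1 or 2. More of these genes had any resting region, 31, 33.3 and 55.6% in the 3 lists, against 15.1% of all genes. Of their Treg regions 14.3, 11.1 and 0% were unshared, against 20.3% for all genes. Of their Tconv regions 7.69, 20 and 11.8% were unshared, against 13.6%. Median folds of regions in these 3 lists were 12.4, 12.1 and 13.2 in Treg and 12.9, 6.61 and 11.6 in Tconv, against 8.46 and 8.49 for all genes. The mitochondrial medians came from only 9 Treg and 10 Tconv regions. Over the 8 shared regions of that list the median was 10.2 in both lists, so the gap came from its few unshared regions. The NF-kB list had 13.6 and 14.8, the naive list 6.64 and 5.91 and the Treg identity list 5.97 and 5.96.

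The strongest unshared regions of both cell types lay mostly at genes outside these lists. The 8 highest Treg-only regions had folds of 9.59 to 12.1 and lay at Sdhaf1, an assembly factor of respiratory complex II (12.1), H2-Q4, Fnbp1, a membrane-bending protein (11.1), Apobec3, a cytidine deaminase active against retroviruses (10.5), Enpp3 (9.96), Tmem50a (9.74), Ssr1, a subunit of the translocon-associated complex (9.63), and Atf3. Of these, Fnbp1 had 69.0 in stimulated Treg and 40.3 in stimulated Tconv, Apobec3 31.2 and 23.5, and Sdhaf1 20.9 and 10.4. Tmem50a and Ssr1 were in neither stimulated list. The highest Tconv-only region, at the start of Kpna1 (chr16:35982662-35984197), had 41.1-fold and a −log10 p of 296, had no counterpart in any of the other 3 lists, and was 56.7 kb from the nearest resting Treg region. Among the next highest Tconv-only regions, those at Sirt5, a mitochondrial deacylase (9.60), Zfp408 (8.86) and Zbtb7a (8.49) and one with no gene within 50 kb (8.86) were also in neither stimulated list, while that at Nxf1, the mRNA exporter (8.68), was in stimulated Treg, at 7.74. In all, 6 of the 8 highest Tconv-only regions had no stimulated counterpart, as against 2 of the 8 highest Treg-only regions. Genes with several unshared regions numbered 24 for Treg and 2 for Tconv, the latter being Bach2 and Septin9.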

How the data were processed

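Chromatin precipitated with an antibody against p65 was sequenced from Treg and Tconv, unstimulated or stimulated, with 2 libraries per group. Per the submitters' processing notes, MACS2 2.1.1.20160309, Trim Galore 0.4.1 and BWA 0.7.15-r1140 were used, with build mm10. The lists have no header. Their names, per the labels, describe pooled replicates, removed blacklisted regions and conservative IDR filtering, so weak or irreproducible peaks are missing. The sources used here do not state how input entered the calling. Each entry carries the authors' fold enrichment (a ratio), the authors' −log10 p and a deposited score that equals 10 times −log10 p within 1 unit in 100% of entries. The depth is unknown, since the lists give no read numbers.

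Overlapping entries of a list were merged (6.70% of Treg and 5.47% of Tconv regions joined several), each region keeping its strongest summit. Each summit was assigned to the nearest of 21887 protein-coding genes of RefSeq's GRCm38.p6 table within 50 kb. Motifs were searched on both strands of RefSeq's promoter windows, the kB motif as its 10-base consensus with degenerate positions. Matches can overlap, and the core word overlaps the NRF1 motif. The core and its reversed word were chosen after a scan of all 8-base words and of further known motifs in the strongest shared windows. Regions elsewhere were not searched, as no genome sequence was used, and the promoter table holds no gene start of chromosome 18.

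Shares have Wilson intervals from scipy 1.17.1, and no test was run, since each group has 1 list. The comparisons were the 2 resting lists with each other and each class with the stimulated lists. The members and gene lists were chosen with earlier results of these data known. Named genes are those of the 8 regions of highest fold in each class, those of the T cell and MHC lists with an unshared region, those with 2 or more unshared regions of 1 class, and Foxp3, Il2ra, Ctla4, Rel, Nfkb1, Nfkbia and Tnfaip3. Other named genes (among them Csf2ra, Cilk1, Itga9, Msl1, Hopx, Bach1, Cd74, Kif23 and Il16) were chosen after their values were seen. Code was tested on simulated data. Alternatives covered the overlap rule, list thresholds and lengths, distances, gene assignment and motif definition. Some regions that the rule for named genes would list are not reported here.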

Additional observations from a re-analysis of the deposited data

How the results depend on the processing

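No paired analysis was possible because each list pools both libraries of its group and gives no value per library, and for the same reason no library was left out in turn. Of the alternatives to the main values, 65 moved a share beyond its interval or a count by over 1.5 times, and 20 did not, and none is a test. Depth is unknown and sets how weak a listed region can be.

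Shares without a counterpart, given for Treg and then Tconv, were 25.3% and 19.1% with a reciprocal overlap of at least 50%, 23.7% and 17.3% with summits within 100 bp, 25.2% and 9.50% at the common −log10 p of 15.1 (2653 Tconv regions left), 18.0% and 9.99% between the upper 50% of each list by fold, 2.03% and 0.675% for the upper 50% against the whole other list, and 16.9% and 16.8% with equal lengths. Counting a region within 1 kb as a counterpart, or leaving entries unmerged, moved neither.

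Shares at gene ends, for Treg-only, shared and Tconv-only regions, were 52.5, 68.7 and 55.2% at 500 bp, 61.3, 79.3 and 67.1% at 2 kb, 62.5, 78.6 and 67.6% with genes of every type, and 45.5, 76.6 and 50% in the upper 50% of each list, which held 33 Treg-only and 10 Tconv-only regions.

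Shares in stimulated Treg, in the same order of classes, were 55.9, 67.8 and 37.2% with reciprocal overlap throughout, 93.9, 84.7 and 30.0% for the upper 50% of the resting lists, 51, 46.3 and 30.5% against the upper 50% of the stimulated list, and 51.6, 46.8 and 29.3% with stimulated lists of equal length. Shares in stimulated Tconv were 40, 57.7 and 22.5%, then 78.8, 77.7 and 10.0%, then 34.9, 39.3 and 19.4% under the first 3 of these. Equal length leaves that list whole. In the weakest quartile, Treg-only and shared regions had 74.3 and 64.1% in stimulated Treg, and the 3 classes 53.2, 46.5 and 43.8% in stimulated Tconv. The reciprocal rule puts Treg-only below shared regions in stimulated Treg, and the others here put it above.

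Genes with a region in the Treg list alone, in both and in the Tconv list alone numbered 897, 6412 and 695 when every gene within 50 kb was counted, and the last was 237 at the common −log10 p. Of 30 counts of list genes with an unshared region, 9 moved by over 1.5 times at the common −log10 p, 5 with a distance of 10 kb, 1 with 200 kb and 14 with every gene within 50 kb.

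The kB motif was in 58.7, 51.7 and 58.3% of windows with 1 mismatch, and in 38.5% of 13 Treg-only and 0% of 3 Tconv-only windows in the upper 50%. The NRF1 motif was in 0% of those Treg-only, 10.5% of shared and 0% of Tconv-only windows there. Its shorter core, added after seeing the data, was in 24.9, 54.6 and 27.1% of all windows of these classes. The causes of these shifts were not tested, apart from those that follow from fewer regions or a looser motif.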
